A study of Mus musculus with 4 samples.

Results

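The acyl-CoA dehydrogenases are flavoenzymes that open the breakdown of fatty acids in mitochondria and act at a later step in that of several amino acids. Here 10 of their genes were followed by annotated gene symbol, current or older: Acadvl, Acadl, Acadm, Acads, Acad9 and Acad11 for fatty acids, and Acadsb, Ivd, Acad8 and Gcdh for amino acids. All 10 are represented on the Affymetrix MOE430A array, by 15 probe sets among 20380 probe sets with a single gene symbol, out of 12393 named genes in all. The arrays hold liver RNA of PPARα-null mice (129S4/SvJae) fed 0.1% Wy14643 for 5 days, PPARα-null mice on normal food, wild-type mice (129S1/SvImJ) fed the same dose of Wy14643 for 5 days and wild-type mice on normal food, all male and 12 to 20 weeks old. Wy14643 (also written WY14643) is a synthetic agonist of PPARα, the nuclear receptor that governs fatty acid catabolism in liver. RNA was pooled within each group, and each pool was hybridized to 1 array. The design text gives 5 mice per group, while another account of the pools gives 4 to 5. These arrays hold no replicates, so no test over mice was made and no p-value is given, and an independent repeat with individual mice, which the study describes, was not analysed here. The labels name a different substrain for each genotype, so genotype and substrain cannot be told apart. For the wild-type Wy14643 array the title was followed, since its description names control conditions.

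Acyl-CoA dehydrogenases take a pair of hydrogens from an acyl-CoA, hold the electrons on bound FAD and typically hand them to electron transfer flavoprotein. From there the electrons reach the respiratory chain. The members differ in the chain they accept. Acadvl, Acadl, Acadm and Acads take very long, long, medium and short straight chains of fatty acids, Acad11 takes long chains, and Acad9 takes long chains and also serves in assembly of respiratory complex I. Acadsb, Ivd and Acad8 take the branched acyl-CoAs made from isoleucine, leucine and valine, and Gcdh takes glutaryl-CoA made from lysine and tryptophan. Genes of the first group include long-known targets of PPARα in liver, which binds with RXR to a direct repeat of the hexamer AGGTCA spaced by a single base.

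Promoter windows were available for 9 of the 10 genes (RefSeq, GRCm38.p6; not Acad9) and ran from 250 bases before to 50 bases after the gene's start. The direct repeat of AGGTCA with 1 base between was searched on both strands with up to 2 mismatches over its 12 scored bases, and AGGTCA alone was searched exactly. None of the 9 windows held the repeat, which 3.86% of 32851 mouse promoter windows held. AGGTCA stood alone in 2 of the 9, Acadvl and Acadm, against 16.3% of all windows. Counted from the start, its first base lay at -87 in Acadvl, on the gene's own strand, and at -249 in Acadm, on the opposite strand, so that it reads TGACCT in the sequence shown. These are matches of letters only, and elements farther away were not searched. The bases before the start are shown for both genes that hold the hexamer, for Acadl, whose profile over the arrays was closest to that of Acadvl, and for Acadsb, which differed in the opposite direction. Capitals mark the hexamer.
Acadvl, chr11:70015429-70015678, minus strand: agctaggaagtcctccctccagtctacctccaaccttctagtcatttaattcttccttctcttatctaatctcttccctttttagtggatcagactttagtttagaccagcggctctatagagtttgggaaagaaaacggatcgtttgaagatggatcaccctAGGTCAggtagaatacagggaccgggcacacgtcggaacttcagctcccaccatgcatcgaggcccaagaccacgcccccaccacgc
Acadm, chr3:153944644-153944893, minus strand: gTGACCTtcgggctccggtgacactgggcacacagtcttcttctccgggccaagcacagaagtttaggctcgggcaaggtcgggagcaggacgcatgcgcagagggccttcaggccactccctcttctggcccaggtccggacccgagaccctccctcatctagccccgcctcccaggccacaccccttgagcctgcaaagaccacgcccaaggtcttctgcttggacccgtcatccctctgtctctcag
Acadl, chr1:66863310-66863559, minus strand: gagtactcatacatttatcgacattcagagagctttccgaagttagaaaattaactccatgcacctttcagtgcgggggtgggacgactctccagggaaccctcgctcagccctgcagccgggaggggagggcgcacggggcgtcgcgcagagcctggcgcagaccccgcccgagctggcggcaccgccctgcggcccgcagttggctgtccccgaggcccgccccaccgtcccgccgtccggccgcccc
Acadsb, chr7:131410351-131410600, plus strand: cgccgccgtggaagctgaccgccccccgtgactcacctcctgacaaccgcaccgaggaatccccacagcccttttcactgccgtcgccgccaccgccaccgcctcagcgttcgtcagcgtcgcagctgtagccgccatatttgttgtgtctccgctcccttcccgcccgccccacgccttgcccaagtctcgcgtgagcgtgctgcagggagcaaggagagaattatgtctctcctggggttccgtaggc

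Values are GCRMA intensities on the linear scale as deposited. An intensity of 12.4, the 90th percentile of 78 probe sets for 46 genes taken as silent in liver, was taken as background, and a gene is called higher or lower where its ratio reached 1.5-fold, the cutoff that the study applied to pooled arrays. Within a genotype, higher and lower in mice given Wy14643 are relative to the control diet of that genotype. Each gene is given by its probe set with the highest mean over the arrays. On this basis 14 of the 15 member probe sets lay above background on all 4 arrays, and the exception, a second probe set of Acadl, lay below it on all 4. All 10 genes were thus measured, among 7455 named genes with a mean above background. Ppara, the disrupted gene, had an intensity of 428 on Wy14643 and 326 on the control diet in PPARα-null mice, against 1250.1 and 847 in wild-type mice, and where its probe set lies relative to the deletion is not given in the sources used here. Summed over 7 hepatocyte markers, intensity was 77151 and 76955 in PPARα-null mice on Wy14643 and on the control diet, against 70125 and 75600 in wild-type mice, while over 10 Kupffer cell markers it was 667 and 1307 against 433 and 1096. Of the 7 hepatocyte markers, 0 were called on Wy14643 in PPARα-null mice, against 2 lower (Cps1 and Tat) in the wild type. Among the 8 Kupffer markers measured, 8 were lower on Wy14643 in PPARα-null and 7 in wild-type animals. Of 6 measured stellate cell markers, 2 were higher and 1 was lower in PPARα-null mice given Wy14643, against 0 higher and 3 lower in the wild type, and 6 were higher in livers of PPARα-null than of wild-type mice on Wy14643. Of 6 measured sinusoidal endothelial markers, 4 were lower on Wy14643 in PPARα-null mice and 1 in wild-type mice. Over the 7455 genes, 2.17% were higher and 4.31% lower in PPARα-null mice given Wy14643, against 14.5% and 16.2% in wild-type mice. Between the genotypes on Wy14643, 18.0% were higher and 16.4% lower in PPARα-null mice. The adipocyte markers Adipoq, Lep and Retn lay at background on every array, as did the muscle markers Ckm and Actc1. Of 3 muscle markers measured, Acta1 and Mb were 2.99-fold and 1.98-fold lower on the control diet in livers of PPARα-null than of wild-type mice. Both were higher in PPARα-null mice given Wy14643 (2.48-fold and 1.52-fold). The PPARα-null control pool enters each of these ratios, and there both genes lay below background, at 11.9 and 10.4. Acta1 was 1.73-fold lower in the wild type given Wy14643. What part shifts in cell makeup have in the values below was not tested, and in bulk RNA fewer cells of a type and less RNA per cell cannot be told apart.

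**Figure D1:**
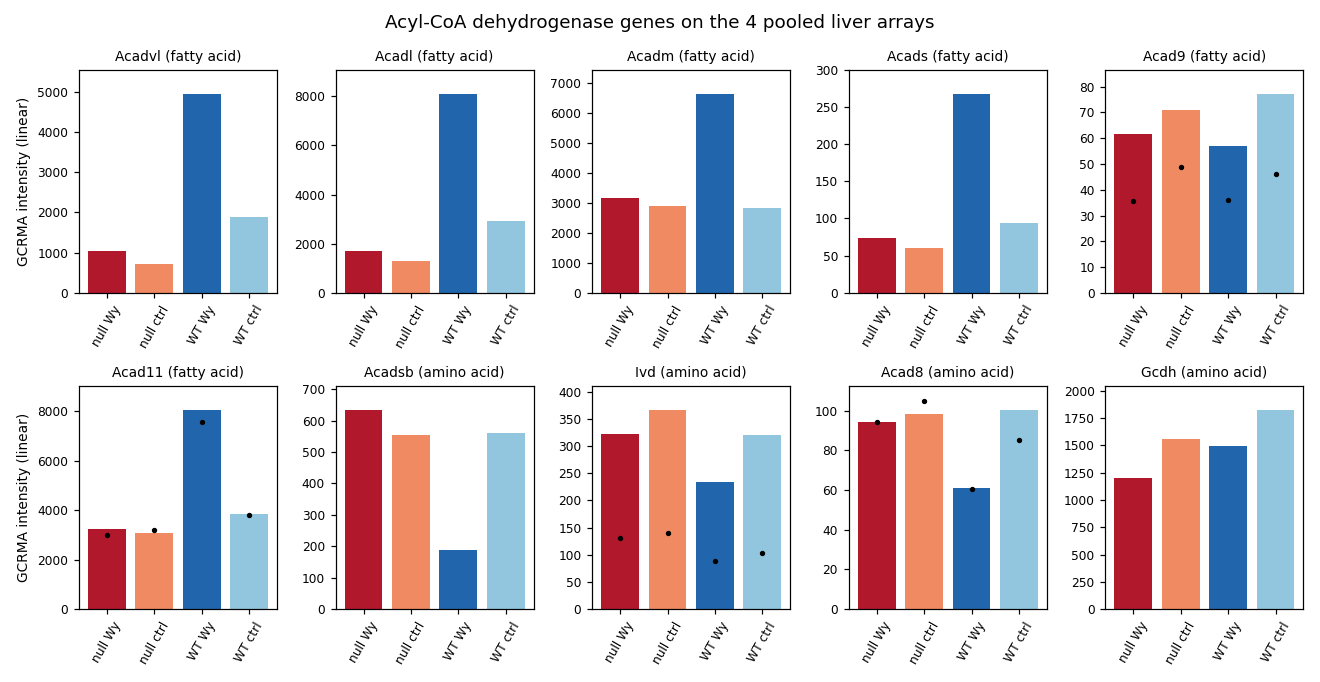
GCRMA intensity (linear vertical axis, starting at 0 and scaled per gene) of the 10 acyl-CoA dehydrogenase genes on the 4 pooled arrays, 1 array per group. Bars show the probe set that stands for the gene and black points a second probe set above background. For 5 fatty acid genes the wild-type Wy14643 bar is the tallest. It is the shortest for Acadsb, at 187, and also for Ivd, Acad8 and Acad9, at 233, 61.2 and 57.2.

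The 4 dehydrogenases that share out straight-chain fatty acids by length all stayed under 1.5-fold in PPARα-null mice given Wy14643 and were all higher in wild-type mice given it. Acadvl (probe set 1424184_at), which works at the inner mitochondrial membrane on the longest chains, had an intensity of 1037 on Wy14643 and 726 on the control diet in PPARα-null mice, against 4956 and 1887 in wild-type mice. Acadl (1448987_at) had 1703 and 1289 in PPARα-null mice, against 8108 and 2933 in wild-type mice. In both genes the wild-type control pool already lay above both PPARα-null pools. The intensity of Acadm (1415984_at), whose human counterpart is the gene of the most common inherited defect of fatty acid oxidation, was 3174 and 2886 in PPARα-null mice, against 6648 and 2824 in wild-type mice. Acads (1460216_at) had 73.6 and 59.97 in PPARα-null mice, against 268 and 93.7 in wild-type mice. For Acadm the wild-type Wy14643 pool alone stood apart, the other pools being within a narrow range of each other.

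Relative to the control diet, Wy14643 feeding left Acadvl 1.43-fold higher in PPARα-null mice and 2.63-fold higher in wild-type mice. Acadl was 1.32-fold higher in PPARα-null mice and 2.76-fold in wild-type mice, Acads 1.23-fold and 2.86-fold, and Acadm 1.10-fold and 2.35-fold in the same order of genotypes. In wild-type mice the responses of the 4 genes thus lay close together, between 2.35-fold and 2.86-fold. The PPARα-null ratios all pointed up but lay under the threshold, with the longest-chain enzymes Acadvl and Acadl at the top. The SD of the log2 ratios between the PPARα-null pools over all 7455 genes was 0.32, and Acadvl (log2 ratio 0.51) and Acadl (0.40) exceeded it, whereas Acads (0.30) and Acadm (0.14) did not. That SD is a spread over different genes and not the error of a single gene's ratio, so it does not tell whether any of the 4 responded. Among those 7455 genes Acadvl ranked 268th from the top in PPARα-null mice and 271st in wild-type mice. The log2 response in PPARα-null minus that in wild-type mice was -0.88 for Acadvl, -1.07 for Acadl, -1.10 for Acadm and -1.22 for Acads, differences that have no error with 1 array per group.

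Acad11 behaved as the straight-chain genes did on Wy14643, and Acad9 did not. Acad11 (1433545_s_at) had an intensity of 3238 on Wy14643 and 3063 on the control diet in PPARα-null mice, against 8065 and 3848 in wild-type mice. Its second probe set (1454647_at) read 3006 and 3208 in PPARα-null mice, against 7585 and 3809 in wild-type mice. Both probe sets therefore put the wild-type Wy14643 pool far above the other pools: the response to Wy14643 was a log2 ratio of 0.08 or, by the second probe set, -0.09 in PPARα-null mice, and 1.07 or 0.99 in wild-type mice. Acad9 (1429581_at), the member with a role in complex I assembly, had 61.7 and 71.1 in PPARα-null mice, against 57.2 and 77.3 in wild-type mice. Its log2 response was -0.20 in PPARα-null mice, against -0.44 in wild-type mice, under 1.5-fold in both, and a second probe set gave -0.45 and -0.36. Acad9 was thus the only fatty acid member that was not higher in wild-type mice given Wy14643, and its ratio lay inside the range of the amino acid members.

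Among the amino acid dehydrogenases no gene was higher in wild-type mice given Wy14643, and 2 were lower. The clearest was Acadsb, which acts in isoleucine breakdown and had an intensity of 634 on Wy14643 and 553 on the control diet in PPARα-null mice, against 187 and 559 in wild-type mice. Both control pools and the PPARα-null Wy14643 pool lay close together, and the wild-type Wy14643 pool lay 2.98-fold below its control. Its log2 response was 0.20 in PPARα-null mice and -1.58 in wild-type mice, a difference of 1.77, and in wild-type mice it ranked 250th from the bottom of 7455 genes. Acadsb is read by a single probe set, 1455446_x_at, of the _x_at kind, whose probes may also bind other transcripts. Acad8 (1419262_at), the valine pathway enzyme, had 94.1 and 98.6 in PPARα-null mice, against 61.2 and 100.5 in wild-type mice, which made it 1.05-fold and 1.64-fold lower on Wy14643. Its second probe set gave 94.5 and 105 in PPARα-null mice, against 60.6 and 85.3 in wild-type mice, so that the wild-type response was only 1.41-fold by that probe set and the call rests on the probe set chosen.

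Ivd and Gcdh stayed under the threshold in both genotypes. Ivd (1418238_at), the leucine pathway enzyme, had an intensity of 323 on Wy14643 and 367 on the control diet in PPARα-null mice, against 233 and 320 in wild-type mice. On Wy14643 it was 1.14-fold lower in PPARα-null and 1.37-fold lower in wild-type mice, and its second probe set, at 131 and 139 against 88.4 and 103, gave 1.07-fold and 1.16-fold. Gcdh (1448717_at), which acts on lysine and tryptophan carbon, had 1201 and 1557 in PPARα-null mice, against 1495 and 1826 in wild-type mice. It was 1.30-fold lower on Wy14643 in PPARα-null mice and 1.22-fold lower in wild-type mice, so that both genotypes gave nearly the same ratio, the log2 response in PPARα-null minus that in wild-type mice being -0.09.

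**Figure D2:**
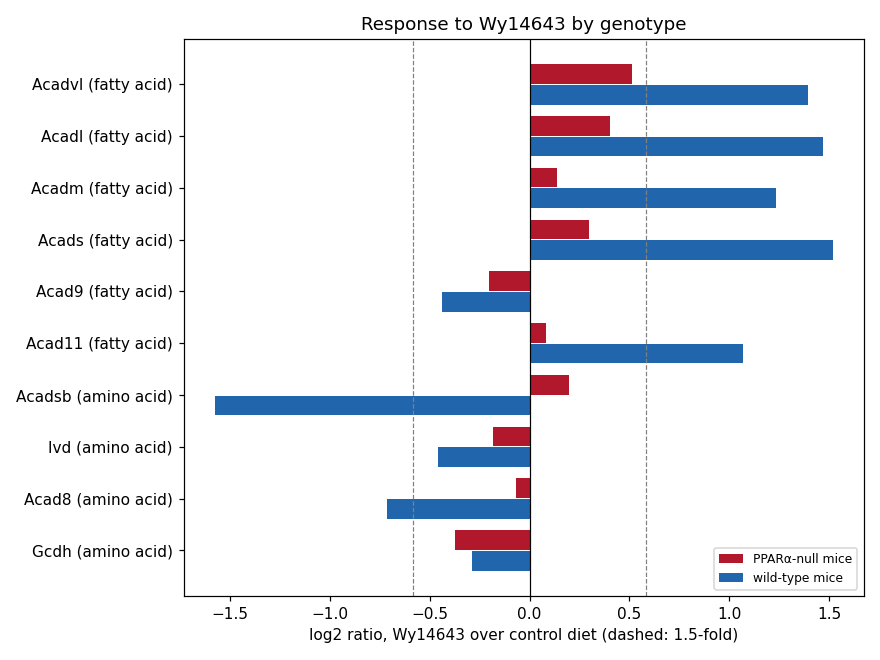
Log2 ratio of Wy14643 over control diet (horizontal axis) for each acyl-CoA dehydrogenase gene in PPARα-null (red) and wild-type (blue) mice, 1 pooled array per group; dashed lines mark 1.5-fold. In wild-type mice 5 fatty acid genes lie between 1.07 and 1.52 and the amino acid genes between -1.58 and -0.29. The remaining fatty acid gene, Acad9, lies at -0.44, inside the range of the amino acid genes. Every PPARα-null bar lies within the dashed lines.

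Counted together, 0 of 10 members were higher and 0 lower in PPARα-null mice given Wy14643, where 2.17% of the 7455 genes measured were higher and 4.31% lower. Among wild-type mice given Wy14643, 5 of 6 fatty acid members were higher and 0 were lower, and 0 of 4 amino acid members were higher and 2 lower, where 14.5% of all genes were higher and 16.2% lower. The median log2 ratio of the fatty acid members was 0.22 in PPARα-null mice, against 1.31 in wild-type mice. That of the amino acid members was -0.13 in PPARα-null mice, against -0.59 in wild-type mice, beside 0.00 over all genes in either genotype. The ranges of both substrate groups in wild-type mice did not overlap once Acad9 was set aside, a split made after its value was seen.

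Between the genotypes on Wy14643 the same contrast appeared as a difference between animals that all received the agonist. Acadvl and Acadl were 4.78-fold and 4.76-fold lower in livers of PPARα-null than of wild-type mice, which placed them 153rd and 156th from the bottom of 7455 genes. Acads was 3.64-fold lower, Acad11 2.49-fold and Acadm 2.09-fold. Conversely, Acadsb was 3.38-fold higher in PPARα-null mice, 243rd from the top, and Acad8 was 1.54-fold higher. The Acad8 call lay near the threshold, at a log2 ratio of 0.62 (0.64 by its second probe set), and was lost with arrays centred on the median (0.56) and with 32 added to the intensities (0.44), which leaves 1 amino acid member higher. Ivd (log2 ratio 0.47), Acad9 (0.11) and Gcdh (-0.32) lay between the thresholds. Thus 0 of 6 fatty acid members were higher and 5 lower in PPARα-null mice, and 2 of 4 amino acid members were higher and 0 lower, where 18.0% of all genes were higher and 16.4% lower. The wild-type Wy14643 array enters both this comparison and the wild-type response above, so they are not independent of each other.

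On the control diet, where no agonist was given, a narrower set of members differed between the genotypes. Acadvl was 2.60-fold lower in livers of PPARα-null than of wild-type mice and Acadl 2.27-fold, 32nd and 43rd from the bottom of 7455 genes. Acads was 1.56-fold lower. The remaining fatty acid members lay under the threshold, at 1.26-fold lower for Acad11, 1.09-fold lower for Acad9 and a log2 ratio of 0.03 for Acadm. The amino acid members lay between -0.23 (Gcdh) and 0.20 (Ivd) on the log2 scale, with Acadsb at -0.02 and Acad8 at -0.03. In all, 3 of 6 fatty acid members were lower and 0 higher, and 0 of 4 amino acid members were called in either direction, where 2.37% of all genes were lower and 2.39% higher. The count of 3 became 2 with 32 added, where Acads stood at -0.45, and with the median over probe sets, where Acadl stood at -0.54 because its probe set below background enters. Acadm and Acadsb were thus alike in having near-equal control pools and opposite ratios on Wy14643.

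**Figure D3:**
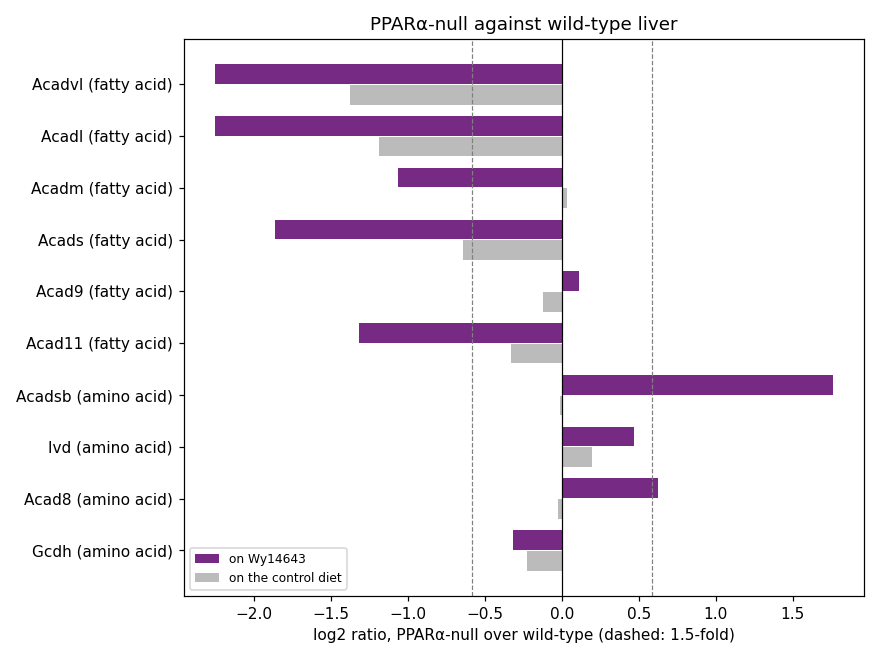
Log2 ratio of PPARα-null over wild-type (horizontal axis) for each acyl-CoA dehydrogenase gene on Wy14643 (purple) and on the control diet (grey), 1 pooled array per group; dashed lines mark 1.5-fold. Acadvl, Acadl and Acads pass the line on both diets, at -1.38, -1.19 and -0.64 on the control diet, and Acadsb stands at 1.76 on Wy14643 and -0.02 on the control diet.

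Profiles over the 4 arrays were set side by side after each gene's log2 values had been centred on their own mean, over 6803 genes above background on all arrays. Acadvl and Acadl were each other's nearest gene, at a root mean square distance of 0.07. The next for Acadvl was Lipg, the endothelial lipase gene (0.11), and D16Ertd472e (0.15), which was also second for Acadl (0.09), ahead of the 5-oxoprolinase gene Oplah (0.11). The long-chain pair thus shared its profile more closely with each other than with any other gene compared. Acadm lay nearest to the basigin gene Bsg (0.04), the holocytochrome c synthase gene Hccs (0.04) and Coro1b (0.04), Acads to 5031439G07Rik (0.02), Fam102a (0.05) and St3gal5 (0.08), and Acad11 to Ermp1 (0.03), Slc20a2 (0.03) and Secisbp2l (0.04). Nearest to Acadsb were the cyclin gene Ccnh (0.04), the folate enzyme gene Aldh1l1 (0.05) and Stat3 (0.05), which stood at log2 ratios of -1.51, -1.57 and -1.49 in wild-type mice given Wy14643. The members with smaller ratios had close neighbours as well. Acad9 lay closest to Asah1, Pemt and Plscr3, Ivd to Rlf, Cop1 and Myrf, Acad8 to Irs1, Lrig1 and Prr14, and Gcdh to Git2, Acp6 and 6820431F20Rik, all within 0.04. These distances rest on 4 arrays and describe them only.

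The genes for electron transfer flavoprotein and for the dehydrogenase that takes electrons from it were themselves split. Etfdh, the dehydrogenase that passes electrons from the flavoprotein to ubiquinone, had an intensity of 446 on Wy14643 and 669 on the control diet in PPARα-null mice, against 2774 and 1526 in wild-type mice. Etfb, the flavoprotein's β subunit, had 1188 and 849 in PPARα-null mice, against 3055 and 1808 in wild-type mice. Etfa, its α subunit, had 5672 and 5568 in PPARα-null mice, against 6445 and 5878 in wild-type mice. Etfdh was lower in PPARα-null mice given Wy14643, at a log2 ratio of -0.59, with Etfb at 0.48, whereas in wild-type mice given Wy14643 Etfdh was 1.82-fold and Etfb 1.69-fold higher. On the control diet they were 2.28-fold and 2.13-fold lower in livers of PPARα-null than of wild-type mice, beside 2.60-fold and 2.27-fold for Acadvl and Acadl. Etfa stayed within 1.14-fold in every comparison. For the flavin itself, Flad1, the FAD synthase gene, was 1.06-fold higher on Wy14643 in PPARα-null mice, against 2.12-fold in wild-type mice, while the riboflavin kinase gene Rfk stood at log2 ratios of -0.09 against 0.11, and Slc52a3 lay near background.

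Most genes for the other steps of fatty acid oxidation pointed the same way as the straight-chain dehydrogenases. Of 11 genes for entry into mitochondria and for the later β-oxidation steps, 0 were called in PPARα-null mice given Wy14643 (with a median log2 ratio of 0.02), against 9 higher and 0 lower in wild-type mice (median 1.05). The isomerase gene Eci1 (4.22-fold), the carnitine palmitoyltransferase gene Cpt2 (3.58-fold), the dienoyl-CoA reductase gene Decr1 (3.52-fold) and Slc25a20, which carries acylcarnitines into mitochondria (2.69-fold), stood highest in wild-type mice, and the dehydrogenases at 2.35-fold to 2.86-fold lay within the range of this list. Between the genotypes on Wy14643, 9 of the 11 were lower in PPARα-null mice (median -2.04), and on the control diet 5 of the 11 (median -0.50). Over all genes, 2.17% were higher and 4.31% lower in PPARα-null mice given Wy14643, and 14.5% were higher in wild-type mice. Between the genotypes, 16.4% of all genes were lower on Wy14643 and 2.37% on the control diet. Of the related flavoenzymes outside the 10, Acad10 was 1.08-fold higher in PPARα-null mice given Wy14643 and 2.35-fold higher in wild-type mice given it. The peroxisomal oxidase gene Acox2 stood at a log2 ratio of 0.38 in PPARα-null mice and of 0.59, at the threshold, in wild-type mice. Between the genotypes on Wy14643 Acox2 stood at -0.05. Acox3 lay at background.

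Of 18 measured genes of branched-chain amino acid breakdown, 0 were higher and 1, Bcat2, was lower in PPARα-null mice given Wy14643 (with a median log2 ratio of -0.01), against 4 higher and 2 lower in wild-type mice (median -0.04). The all-gene shares of 14.5% higher and 16.2% lower in wild-type mice are of similar size. In PPARα-null mice those shares were 2.17% and 4.31%. Dbt, the transacylase core of the branched-chain ketoacid dehydrogenase that feeds Acadsb, Ivd and Acad8, had an intensity of 1011 on Wy14643 and 1173 on the control diet in PPARα-null mice, against 117 and 946 in wild-type mice. Dbt thus had the same pattern as Acadsb, with a low wild-type Wy14643 pool, 8.08-fold under its control, and the other pools close together. The genes for its partner subunits, Bckdha and Bckdhb, stood at log2 ratios of 0.09 and 0.02 in wild-type mice. Of the enzymes downstream, Hsd17b10, on the isoleucine route of Acadsb, was 2.18-fold higher in wild-type mice, Mccc2, which follows Ivd, 2.11-fold, and Hibch, on the valine route of Acad8, 1.98-fold. Acat1 was also higher, at 1.59-fold, and Mmut lay under the threshold at a log2 ratio of 0.37. The remaining measured downstream genes lay under the threshold and below 0. These were Mccc1, the partner subunit of Mccc2 (-0.21), Auh (-0.33), Hibadh (-0.10), Aldh6a1 (-0.33), Pcca (-0.45), Pccb (-0.23) and Mcee (-0.28). Between the genotypes on Wy14643, 1 of the 18 (Dbt, 8.64-fold) was higher in PPARα-null mice and 5 lower, and 0 of 18 were called on the control diet. The all-gene shares were 18.0% higher and 16.4% lower on Wy14643, and 2.39% and 2.37% on the control diet.

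Around Gcdh, 8 genes of lysine and tryptophan breakdown were measured, of which 0 were called in PPARα-null mice given Wy14643 (with a median log2 ratio of 0.01), against 1 higher and 2 lower in wild-type mice (median 0.05), beside all-gene shares of 14.5% higher and 16.2% lower, which for 8 genes are of similar size. Haao, which acts late in tryptophan breakdown, was 3.99-fold lower in wild-type mice, with an intensity of 1361 on Wy14643 and 1370 on the control diet in PPARα-null mice, against 395 and 1573 in wild-type mice. Aass, which opens lysine breakdown, was 1.95-fold lower, and Dlst, a subunit gene shared with the tricarboxylic acid cycle, was 2.34-fold higher. The tryptophan dioxygenase gene Tdo2 stood at 0.54. Gcdh, at -0.29, lay between these extremes. Among 4 measured complex I assembly partners of Acad9, 1, Ndufaf1, was lower in PPARα-null mice given Wy14643, at -0.61, beside 4.31% of all genes. In wild-type mice 0 of the 4 were called, with log2 ratios from -0.38 (Ndufaf1) to 0.40 (Tmem186, near background) and Ecsit and Timmdc1 at -0.24 and -0.18, beside -0.44 for Acad9.

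**Figure D4:**
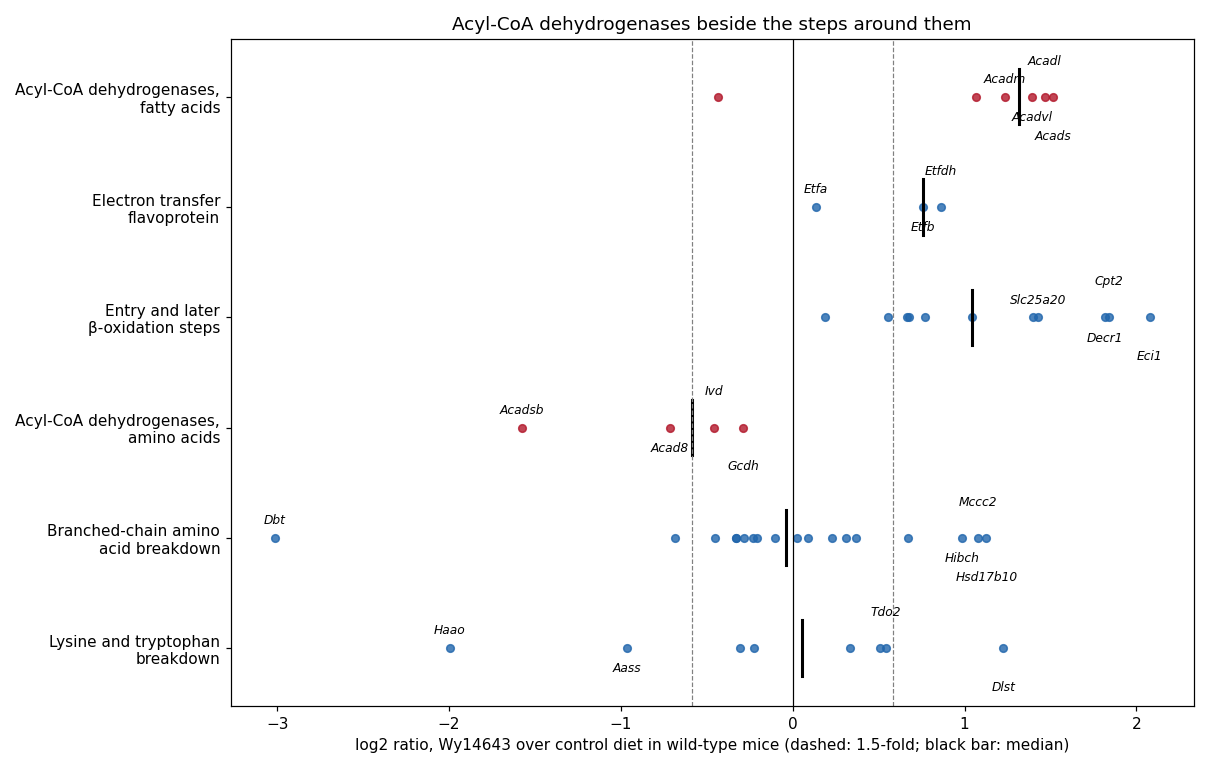
Log2 ratio of Wy14643 over control diet in wild-type mice (horizontal axis) for the measured genes of 6 lists, 1 point per gene, with the median as a black bar and dashed lines at 1.5-fold; acyl-CoA dehydrogenases are in red and up to 4 genes with the largest absolute ratio are named per list. The medians are 1.31 for the fatty acid dehydrogenases, 1.05 for entry and later β-oxidation steps and 0.76 for electron transfer flavoprotein and its dehydrogenase. Those of the amino acid lists are -0.59, -0.04 and 0.05.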

How the data were processed

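Liver RNA pooled within each of 4 groups was hybridized to Affymetrix MOE430A arrays, 1 per group. The deposited values are probe set intensities from GCRMA, in version 2.20 by the submitters' processing notes, a method of background correction, quantile normalization and summary over probes. Whether these 4 arrays were normalized alone is not given in the sources used here. They run from 1.55 to 31270.2, so they are linear, and log2 was taken of them. Of 22690 probe sets, 64 controls were left out. A platform annotation table gave 20380 of the remaining 22626 a single symbol, 691 several and 1555 none. Where in a transcript a probe set lies was not used here.

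Ratios were taken for Wy14643 over control within each genotype and PPARα-null over wild-type on each diet. Genes with a mean log2 value above background were counted at 1.5-fold, and with 1 array a group no ratio has an error. Named are every member, Ppara, the up to 4 genes of each list with the largest wild-type response and the 3 nearest profiles of each member. Others (Bcat2, Bckdha, Bckdhb, Acat1, Mmut, Mccc1, Auh, Hibadh, Aldh6a1, Pcca, Pccb, Mcee, Ppargc1b, Nr2f2, Acox3 and the cell type markers) were named after their values were seen. The members and lists were chosen with earlier results of these data known. Alternatives changed the filter, the floor, the offset, the scaling, the probe sets and the threshold. The ratio calculation was tested on simulated data. Python 3.11.15 with numpy 2.4.6, pandas 2.3.3 and matplotlib 3.10.9 was used, and limma 3.58.1 under R 4.3.3 for cyclic loess.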

Additional observations from a re-analysis of the deposited data

Results flagged for a closer look

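By the probe set that stands for each gene, Acadsb had responses to Wy14643 of opposite sign in the genotypes with at least 1 of them past 1.5-fold: its log2 ratio of Wy14643 over control was 0.20 in PPARα-null mice and -1.58 in wild-type mice. The difference was not tested, since each group is 1 pooled array, and the ratio in PPARα-null mice is smaller than the SD of 0.32 over all genes in that pair. By its second probe set Acad11 also had opposite signs, at -0.09 in PPARα-null mice and 0.99 in wild-type mice.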

How the results depend on the processing

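The medians of both substrate groups moved by less than 0.32 on the log2 scale (the SD of the PPARα-null pair over all genes) in all 64 recalculations, and 136 of 144 counts of members stayed within 1.5 times. The 8 that did not all concern the amino acid members, where Acad8 lies near the threshold (0.56 between genotypes on Wy14643 with arrays centred, 0.44 with 32 added) and Acadsb has 1 probe set. In wild-type mice the number lower on Wy14643 was 1 in place of 2 with 32 added to the intensities, without probe sets of the _s_at, _x_at and _a_at kinds (Acadsb then has none), with the second brightest probe set and at 2-fold. The number higher in PPARα-null mice on Wy14643 was 1 in place of 2 with 32 added, with arrays centred on the median, without those probe sets and at 2-fold. The 3 fatty acid members lower on the control diet became 2 with 32 added and at 2-fold, where Acads no longer passed, and with the median or the second probe set of a gene, where Acadl takes in a probe set below background or has no other above it. With the median, Acadl was at 0.81 for the wild-type response and -0.54 between genotypes on the control diet. Of 312 ratios of single members, 307 moved by less than 0.32 and none that was called changed sign. No paired analysis was possible because each group has 1 array. The members nearest to background were Acad9, Acad8 and Acads. Over all genes, adding 32 left 51 higher and 139 lower in place of 162 and 321 in PPARα-null mice given Wy14643, and 761 lower in place of 1205 in the wild type. Between genotypes on the control diet it left 63 higher and 100 lower in place of 178 and 177. At 2-fold the counts of genes higher and lower were 13 and 61 for Wy14643 in PPARα-null mice, 501 and 567 (in place of 1081 and 1205) in the wild type, 685 and 619 (in place of 1339 and 1223) between genotypes on Wy14643 and 33 and 60 on the control diet. The median over probe sets gave 92 genes higher of 6791 in PPARα-null mice given Wy14643.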

Other observations

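Among 8 measured transcription factor and coactivator genes described at acyl-CoA dehydrogenase promoters, 1 was higher and 0 lower in PPARα-null mice given Wy14643 (with a median log2 ratio of 0.25), against 0 higher and 1 lower in wild-type mice (median -0.07), where 14.5% of all genes were higher and 16.2% lower. The gene higher in PPARα-null mice was the coactivator gene Ppargc1b (1.87-fold), where 2.17% of all genes were higher and 4.31% lower. Between genotypes on Wy14643, Rxra (1.73-fold), Ppargc1b (log2 ratio 0.59) and Nr2f2 (1.81-fold) were higher and Ppara was 2.92-fold lower in PPARα-null mice. In that comparison 18.0% of all genes were higher and 16.4% lower. On the control diet Ppara alone was called, 2.60-fold lower, where 2.39% of all genes were higher and 2.37% lower. The related gene Ppargc1a had an intensity of 28.7 on Wy14643 and 41.2 on the control diet in PPARα-null mice, against 19.6 and 50.4 in wild-type mice, 2.57-fold lower on Wy14643 in the wild type. Hnf4a was 1.48-fold lower on Wy14643 in PPARα-null mice and 1.46-fold lower in wild-type mice. Rxra, which encodes the partner of PPARα on DNA, was 1.47-fold higher on Wy14643 in PPARα-null mice and stood at a log2 ratio of -0.35 in wild-type mice. Sirt3, the gene of the main mitochondrial deacetylase, was 1.10-fold higher on Wy14643 in PPARα-null mice and 1.53-fold lower in wild-type mice, and Sirt4 lay near background.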
